A study of Mus musculus with 13 samples.

Results

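The genes described here are 10 ubiquitin ligases, ligase adaptors and ligase partners known as brakes on T cell activation: *Ndfip1*, *Ndfip2*, *Itch*, *Nedd4*, *Nedd4l*, *Cbl*, *Cblb*, *Ubash3a*, *Ubash3b* and *Rnf128*. They are 10 of the 24417 genes counted, found by symbol, and each was present in the count tables of both experiments. The genes were selected on results of these same libraries, and which values were used is not recorded, so all their values, fold changes and calls below are a description and no p-value is given for them. The study asked whether restoring Foxp3, the transcription factor that defines regulatory T (Treg) cells, gives functional Treg cells in mice that already have fatal autoimmune disease. RNA was sequenced from doubly sorted CD4 T cells of spleen and lymph node of C57BL/6 mice, in 2 separate experiments with 13 libraries in all. In the first, all mice were males analyzed on day 21 that had been dosed once, on postnatal day 14, with 4-hydroxytamoxifen (4-OHT). The 3 control Treg libraries came from healthy Foxp3DTR-GFP/yCd4creERT2 mice, whose Foxp3 allele is functional. The 3 rescued Treg libraries came from diseased Foxp3LSL/yCd4creERT2 mice, in which a Thy1.1 reporter and STOP cassette between loxP sites blocks Foxp3 until 4-OHT activates a Cre recombinase made from the *Cd4* locus. The 2 Treg “wannabe” libraries came from diseased Foxp3LSL/yCd4wt mice, which got 4-OHT but carry no recombinase. In the second experiment all mice were females of 9 to 11 weeks by their label, all given diphtheria toxin, and all cells sequenced were “wannabes” that use the Foxp3LSL allele. The 3 resting “wannabe” libraries came from Foxp3LSL/WTCd4wt mice, whose own Treg cells lack the toxin receptor and remain, and the 2 activated “wannabe” libraries from Foxp3LSL/DTRCd4wt mice, whose Treg cells the toxin removes. Control and rescued Treg cells share the recombinase but differ in their Foxp3 allele and in the health of the mice, healthy against diseased. Neither can be told apart from the rescue itself. Both Treg populations differ from male “wannabes” in the recombinase, and control Treg cells also in the Foxp3 allele and the health of the mice. None of these can be told apart from Foxp3 status. The recombinase acts in any cell that uses the *Cd4* locus.

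Ubiquitin ligases attach ubiquitin to chosen proteins and so send them to the proteasome or the lysosome or change their partners. In T cells, Ndfip1 and Ndfip2 are membrane adaptors that bind and activate HECT ligases of the Nedd4 family, such as Itch, Nedd4 and Nedd4l, whereas Cbl and Cblb are RING ligases that act on the T cell receptor and its kinases and adaptors. Ubash3a (Sts-2) and Ubash3b (Sts-1) bind Cbl proteins and ubiquitin, and Ubash3b is a phosphatase of ZAP-70 and related kinases. Rnf128 (Grail) is a transmembrane RING ligase known from anergic T cells. Loss of *Itch*, *Ndfip1* or *Cblb* in mice gives overactive T cells and inflammation.

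Between 25558402 and 36660933 reads were counted per library. Values are given as counts scaled to the effective library size of edgeR's TMM method within an experiment (normalized counts). They are listed in the order of the library numbers, which serve here only to name the libraries. Across genes, log2 CPM (counts scaled to library size) of replicates correlated with a Pearson r of 0.934 to 0.947 in the male and 0.978 to 0.987 in the female experiment. The *Foxp3* normalized count was 28381 to 36405 in rescued Treg, 5479 to 8264 in control Treg, 2762 to 3273 in male “wannabe”, 1999 to 2230 in resting and 1568 to 1728 in activated “wannabe” libraries. The sum of 5 T cell markers (*Cd3d*, *Cd3e*, *Cd3g*, *Cd4* and *Cd2*) was 121784 to 162210 in male “wannabe”, 103535 to 113890 in control Treg, 102397 to 117382 in rescued Treg, 103312 to 112061 in resting and 103857 to 105670.5 in activated “wannabe” libraries, so among the males it was highest in “wannabes”. *Cd4* alone was 31727 and 44987 in male “wannabes” and 12792 to 16802 in the 6 Treg libraries. The sum of 5 Treg markers was 55126 to 60197 in male “wannabe”, 89722 to 114493 in control Treg and 105200 to 133989 in rescued Treg libraries. Of the other lists, the sum of 3 epithelial markers (*Krt8*, *Krt18* and *Cdh1*) was 330 to 415 in male “wannabe” libraries. It was 24.5 to 125 in control Treg and 25.9 to 164 in rescued Treg libraries. Different genes carried it in male “wannabe” replicate 1 (*Cdh1* 263, *Krt18* 144) and replicate 2 (*Cdh1* 1.08, *Krt18* 329). In females the sum was 123 to 148 in activated against 53.0 to 94.7 in resting “wannabe” libraries. There *Krt8* was at 0 in all 5 libraries, *Krt18* overlapped, and only *Cdh1* was higher in activated libraries. Of the B cell markers, *Cd79b* was 602 to 650.2 in activated and 223 to 261 in resting “wannabes” and 713 to 1249 in the male libraries. *Cd79a* was 59.2 to 72.8 in activated and 58.2 to 71.5 in resting “wannabes”, which overlapped, and 123 to 335 in the male libraries, and *Ms4a1* was between 0 and 12.6 in all libraries. Activated “wannabes” also lay above resting ones in the sum of 5 myeloid markers, at 163 to 283 against 48.4 to 157. The same held for the sum of 2 CD8 T cell markers, at 423 to 473 against 288 to 412. For 5 Treg markers it was 51174 to 58843 against 44048 to 49825. The members of the last 2 lists did not all rise. *Ikzf2* and *Tnfrsf18* carried the Treg sum, *Foxp3* was lower, and *Il2ra* and *Ctla4* overlapped. *Cd8b1* carried the CD8 sum, while *Cd8a* was at most 16.1 and overlapped. The sum of 2 NK cell markers was 151 to 224 in male “wannabe”, 94.6 to 223 in rescued Treg and 13.7 to 43.4 in control Treg libraries, with *Ncr1* at 0 in all libraries of control Treg and male “wannabe” cells. In males the myeloid sum overlapped between all populations. It was 146 to 376 in control Treg, 185 to 429 in rescued Treg and 51.7 to 215 in “wannabe” libraries. *Cd68* (101 to 168 against 7.51 to 22.8) and *Fcer1g* (10.4 to 34.0 against at most 3.65) were higher in rescued than in control Treg. The other myeloid markers overlapped between these populations. The part of any of these markers in the differences below was not tested. In such bulk samples fewer cells of a type and less RNA per cell cannot be told apart.

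**Figure D1:**
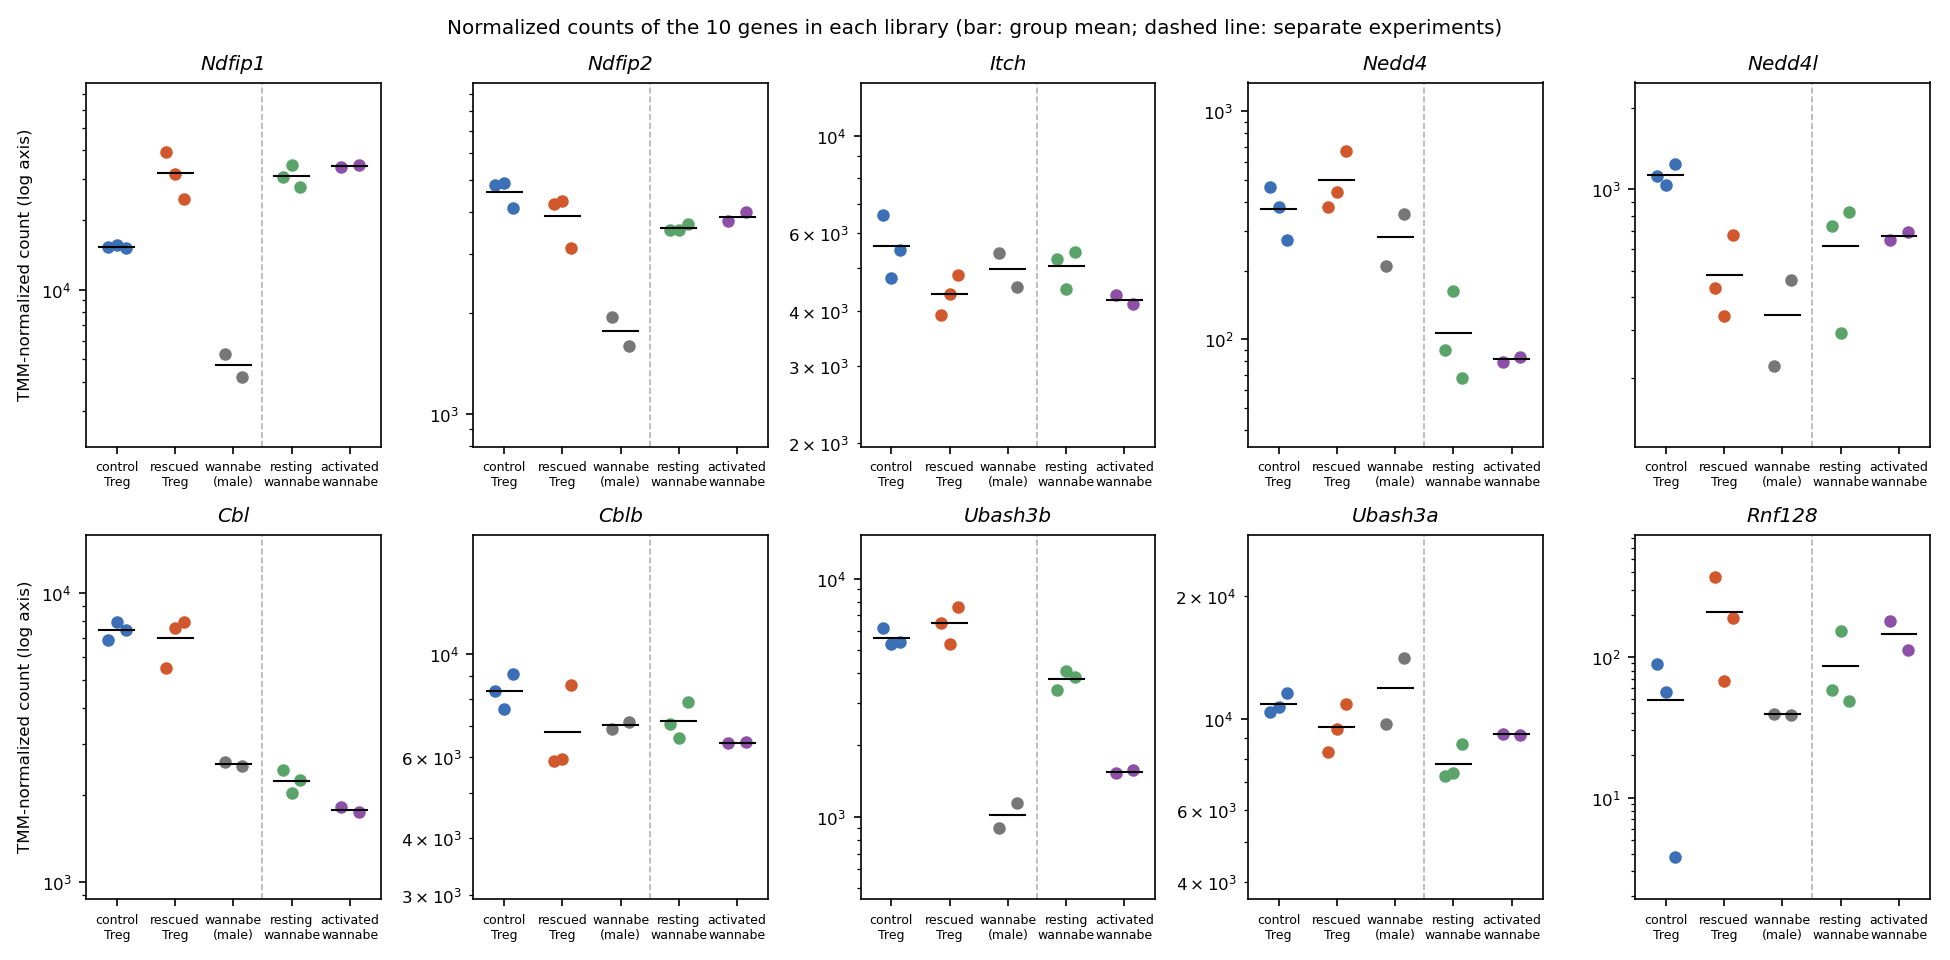
Normalized counts (log axis) of the 10 genes in each of the 13 libraries, 1 panel a gene, with points for libraries, bars for group means and a dashed line between the experiments, which were normalized separately. *Ndfip1*, *Ndfip2*, *Cbl* and *Ubash3b* of male “wannabes” lie below every Treg library, and *Ubash3b* of activated “wannabes” lies below the resting ones.

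Among the adaptors, *Ndfip1* separated all 3 male populations: it was lowest in “wannabe”, intermediate in control Treg and highest in rescued Treg cells. *Ndfip1* lies on chromosome 18 of GRCm38 from 38410396 to 38465303 on the plus strand. Normalized counts were 5261 and 4179 in the “wannabe” libraries, 15275, 15641 and 15121 in the control Treg libraries and 39331, 31593 and 24750.5 in the rescued Treg libraries. No library of one of these populations reached into the range of another. The rescued libraries spread far more widely than the control ones, which lay within a narrow band. The log2 fold change of rescued against control Treg was 1.06 ± 0.17 (SE, 95% interval 0.68 to 1.43). It passed the adjusted p of 0.05 in the fit over all genes but not without control Treg replicate 1 or without control Treg replicate 3, and lay between 0.88 and 1.21 over the 8 fits that leave out a library. Against “wannabe” cells it was 1.70 ± 0.20 (SE, 95% interval 1.26 to 2.15) for control Treg and 2.76 ± 0.21 (SE, 95% interval 2.29 to 3.23) for rescued Treg. In females the counts were 30549.7, 34516 and 27658 in resting and 33901 and 34616 in activated “wannabes”. These ranges overlapped, and the log2 fold change was 0.15 ± 0.10 (SE, 95% interval -0.09 to 0.39).

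The paralog *Ndfip2* did not separate the Treg populations from each other but was lower in male “wannabes” than in either. *Ndfip2* lies on chromosome 14 from 105258573 to 105309298 on the plus strand, and 553 of its exonic bases (4.79%) overlap a pseudogene on the opposite strand. Its normalized count was 4814, 4874 and 4112 in control Treg, 4235, 4316 and 3115 in rescued Treg and 1947 and 1589.8 in “wannabe” libraries. The Treg ranges overlapped, and both “wannabe” libraries lay below all 6 Treg libraries. The log2 fold change of rescued against control Treg was -0.24 ± 0.18 (SE, 95% interval -0.63 to 0.15), and against “wannabes” it was 1.38 ± 0.21 (SE, 95% interval 0.92 to 1.84) for control and 1.14 ± 0.21 (SE, 95% interval 0.68 to 1.59) for rescued Treg. In females *Ndfip2* was 3543, 3528 and 3686 in resting and 3762 and 3988 in activated “wannabes”. The activated libraries lay just above the resting ones, at a log2 fold change of 0.11 ± 0.07 (SE, 95% interval -0.07 to 0.29). The ratio of *Ndfip1* to *Ndfip2* read counts within a library, which no scaling between libraries can move, was 7.32 to 9.29 in rescued Treg, 3.17 to 3.68 in control Treg and 2.63 to 2.7 in male “wannabe” libraries. In females it was 7.50 to 9.78 in resting and 8.68 to 9.01 in activated “wannabes”. Thus the balance of the adaptors differed between control and rescued Treg cells without overlap, whereas resting and activated “wannabes” overlapped.

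Of the HECT ligases these adaptors serve, *Itch* differed little between populations. *Itch* lies on chromosome 2 from 155133509 to 155226855 on the plus strand. It was counted at 6607, 4741 and 5491 (normalized) in control Treg, 3919, 4366 and 4815 in rescued Treg and 5424 and 4516 in male “wannabe” libraries, and the ranges of all 3 populations overlapped. The log2 fold changes were -0.36 ± 0.17 (SE, 95% interval -0.73 to 0.01) for rescued against control Treg, 0.18 ± 0.19 (SE, 95% interval -0.24 to 0.59) for control Treg against “wannabes” and -0.19 ± 0.19 (SE, 95% interval -0.60 to 0.23) for rescued Treg against “wannabes”. In females it was 5239, 4473 and 5452 in resting and 4334 and 4135 in activated “wannabes”. Both activated libraries lay below the 3 resting ones, with a log2 fold change of -0.26 ± 0.10 (SE, 95% interval -0.50 to -0.01), which passed the threshold only in the fit without resting “wannabe” replicate 2.

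*Nedd4l* was highest in control Treg cells. It lies on chromosome 18 from 64887705 to 65217828 on the plus strand, and 277 of its exonic bases (1.57%) overlap an antisense gene, so reads of the latter cannot be told apart there if the counting did not use strand. The normalized count was 1123, 1038 and 1246 in control Treg, 429.9, 339.6 and 679 in rescued Treg and 222 and 462 in male “wannabe” libraries. All control libraries lay above all rescued and “wannabe” ones, which overlapped each other. The log2 fold change was -1.23 ± 0.34 (SE, 95% interval -1.98 to -0.49) for rescued against control Treg, which did not pass the threshold in the fit reported here but passed it with DESeq2, without the filter on low counts, in a fit of only these populations, and without Treg “wannabe” replicate 1 or replicate 2. For control Treg against “wannabes” it was 1.73 ± 0.40 (SE, 95% interval 0.86 to 2.61), a call that was lost without Treg “wannabe” replicate 1. For rescued Treg against “wannabes” it was 0.50 ± 0.38 (SE, 95% interval -0.34 to 1.34). In females *Nedd4l* was 733, 293 and 826 in resting and 649 and 698 in activated “wannabes”, with the activated libraries inside the resting range and a log2 fold change of 0.13 ± 0.40 (SE, 95% interval -0.83 to 1.08).

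*Nedd4*, on chromosome 9 from 72662346 to 72749852 on the plus strand, was counted at low levels in both experiments. Its normalized count was 468, 380.3 and 272 in control Treg, 381, 445 and 668 in rescued Treg and 209.6 and 353 in male “wannabe” libraries. Rescued libraries all lay above the “wannabe” ones, with a log2 fold change of 0.82 ± 0.40 (SE, 95% interval -0.06 to 1.71), and both other pairs of populations overlapped, at 0.42 ± 0.35 (SE, 95% interval -0.36 to 1.19) for rescued against control Treg and 0.41 ± 0.40 (SE, 95% interval -0.47 to 1.28) for control Treg against “wannabes”. In females it was 89.4, 163 and 67.5 in resting and 79.4 and 84.0 in activated “wannabes”, which overlapped, at a log2 fold change of -0.38 ± 0.41 (SE, 95% interval -1.37 to 0.60). The 95% interval of *Nedd4* includes 0 in all 4 comparisons. The ratio of *Nedd4l* to *Nedd4* counts was 2.40 to 4.59 in control Treg, 0.764 to 1.13 in rescued Treg and 1.06 to 1.31 in male “wannabe” libraries, so that every control library lay above the other male libraries. In resting “wannabes” it was spread over 1.79 to 12.2, which holds the activated values of 8.18 to 8.31.

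The RING ligase *Cbl* was several-fold lower in male “wannabes” than in either Treg population, whereas its paralog *Cblb* was not. *Cbl* lies on chromosome 9 from 44142976 to 44234049 on the minus strand and *Cblb* on chromosome 16 from 52031225 to 52208048 on the plus strand. The normalized count of *Cbl* was 6862, 7931 and 7469 in control Treg, 5481, 7579 and 7939.8 in rescued Treg and 2609.6 and 2509.7 in “wannabe” libraries. The Treg populations overlapped, and both “wannabe” libraries lay far below them. The log2 fold change was -0.08 ± 0.16 (SE, 95% interval -0.45 to 0.28) for rescued against control Treg, 1.54 ± 0.19 (SE, 95% interval 1.11 to 1.96) for control Treg against “wannabes” and 1.45 ± 0.19 (SE, 95% interval 1.02 to 1.88) for rescued Treg against “wannabes”. In females *Cbl* was 2435, 2037 and 2259 in resting and 1818 and 1739 in activated “wannabes”. Every activated library was below every resting one, at a log2 fold change of -0.33 ± 0.10 (SE, 95% interval -0.58 to -0.09), which passed the threshold with DESeq2 and without resting “wannabe” replicate 2 but not in the fit reported here. *Cblb* was 8313, 7596 and 9083 in control Treg, 5879, 5916 and 8597 in rescued Treg and 6897 and 7149.9 in male “wannabe” libraries. Rescued libraries overlapped both other populations, and the control libraries lay slightly above the “wannabe” ones. Its log2 fold changes were -0.29 ± 0.17 (SE, 95% interval -0.67 to 0.08) for rescued against control Treg, 0.25 ± 0.19 (SE, 95% interval -0.18 to 0.67) for control Treg against “wannabes” and -0.05 ± 0.19 (SE, 95% interval -0.47 to 0.37) for rescued Treg against “wannabes”. In females *Cblb* was 7063, 6586 and 7896 in resting and 6416 and 6457 in activated “wannabes”, again without overlap and at -0.16 ± 0.09 (SE, 95% interval -0.38 to 0.07). The ratio of *Cbl* to *Cblb* counts was 0.822 to 1.04 in control and 0.924 to 1.28 in rescued Treg libraries but 0.351 to 0.378 in male “wannabes”. In the female “wannabes” it was 0.286 to 0.345 when resting and 0.269 to 0.283 when activated.

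The Cbl partner *Ubash3b* was lower in male “wannabes” than in either Treg population and was also lower in activated than in resting “wannabes”, while *Ubash3a* showed neither pattern. *Ubash3b* lies on chromosome 9 from 41011098 to 41161697 on the minus strand and *Ubash3a* on chromosome 17 from 31207873 to 31246892 on the plus strand. The normalized count of *Ubash3b* was 6213, 5332 and 5399 in control Treg, 6523, 5306 and 7618 in rescued Treg and 898 and 1142 in male “wannabe” libraries. Both “wannabe” libraries were below all Treg libraries, whose populations overlapped. The log2 fold change was 0.20 ± 0.17 (SE, 95% interval -0.18 to 0.58) for rescued against control Treg, 2.47 ± 0.22 (SE, 95% interval 1.99 to 2.94) for control Treg against “wannabes” and 2.67 ± 0.22 (SE, 95% interval 2.19 to 3.15) for rescued Treg against “wannabes”. In females *Ubash3b* was 3401, 4092 and 3847 in resting and 1527 and 1567 in activated “wannabes”. These did not overlap, and the log2 fold change was -1.29 ± 0.10 (SE, 95% interval -1.54 to -1.04), called in the fit and in each of the 5 fits that leave out a library. *Ubash3a* was 10383, 10699 and 11593 in control Treg, 8302, 9451 and 10905 in rescued Treg and 9741 and 14082 in male “wannabe” libraries, and the “wannabe” libraries lay on both sides of the control range and overlapped the rescued one. Its log2 fold changes were -0.19 ± 0.17 (SE, 95% interval -0.56 to 0.18) for rescued against control Treg, -0.13 ± 0.19 (SE, 95% interval -0.54 to 0.28) for control Treg against “wannabes” and -0.32 ± 0.19 (SE, 95% interval -0.73 to 0.09) for rescued Treg against “wannabes”. In females *Ubash3a* was 7251, 7376 and 8668 in resting and 9182 and 9161 in activated “wannabes”, with the activated libraries higher, at 0.24 ± 0.10 (SE, 95% interval 0.01 to 0.47), which passed the threshold only in the fit without resting “wannabe” replicate 3. The ratio of *Ubash3b* to *Ubash3a* counts was 0.466 to 0.598 in control Treg, 0.561 to 0.786 in rescued Treg and 0.0811 to 0.0922 in male “wannabe” libraries. It was 0.444 to 0.555 in resting and 0.166 to 0.171 in activated “wannabes”, so within each experiment the ratio was several-fold smaller in the male and the activated “wannabes” than in the other populations.

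Promoter windows of these 2 paralog pairs are shown because the members of a pair parted in RNA level. Each window runs from 250 bases before to 50 bases after a RefSeq transcription start on GRCm38.p6, 5′ to 3′ on the strand of the gene, and 7 of the 10 genes had at least 1 window in that table, 9 windows in all. Capitals mark matches on either strand to any of 8 motifs searched, none of which overlap in the windows shown. Among all 32851 windows of the table the forkhead motif (TGTTTAC) was found in 3.65%, the NFAT motif (GGAAAA) in 23.4%, the motif of AP-1 (TGANTCA) in 7.81%, and the STAT5 motif (TTCNNNGAA) in 8.3%. The Egr motif (GCGNGGGCG) was found in 5.55%, the Runx motif (TGTGGT) in 16.8%, the CCAAT box, which is searched by its own name, in 37.4%, and the TATA box (TATAAA) in 13.6%.
*Cbl* at chr9:44233997-44234296, minus strand: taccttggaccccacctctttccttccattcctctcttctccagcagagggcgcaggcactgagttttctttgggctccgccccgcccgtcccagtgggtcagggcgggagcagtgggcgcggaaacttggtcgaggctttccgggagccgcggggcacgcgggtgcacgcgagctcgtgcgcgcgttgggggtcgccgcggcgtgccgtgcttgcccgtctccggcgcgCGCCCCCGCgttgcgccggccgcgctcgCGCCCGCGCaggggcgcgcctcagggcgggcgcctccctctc
*Cblb* at chr16:52031299-52031598, plus strand: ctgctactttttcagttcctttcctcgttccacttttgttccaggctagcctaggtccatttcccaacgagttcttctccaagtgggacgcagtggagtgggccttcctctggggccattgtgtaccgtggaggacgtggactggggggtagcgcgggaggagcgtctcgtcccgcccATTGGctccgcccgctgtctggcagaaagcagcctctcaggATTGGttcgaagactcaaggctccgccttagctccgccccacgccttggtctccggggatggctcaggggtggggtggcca
*Ubash3b* at chr9:41158013-41158312, minus strand: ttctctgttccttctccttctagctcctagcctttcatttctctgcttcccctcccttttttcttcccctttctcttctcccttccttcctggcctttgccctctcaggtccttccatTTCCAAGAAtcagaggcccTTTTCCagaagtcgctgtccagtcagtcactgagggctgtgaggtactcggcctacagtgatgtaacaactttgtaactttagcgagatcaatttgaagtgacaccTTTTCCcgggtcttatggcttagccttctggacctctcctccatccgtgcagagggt
*Ubash3a* at chr17:31207816-31208115, plus strand: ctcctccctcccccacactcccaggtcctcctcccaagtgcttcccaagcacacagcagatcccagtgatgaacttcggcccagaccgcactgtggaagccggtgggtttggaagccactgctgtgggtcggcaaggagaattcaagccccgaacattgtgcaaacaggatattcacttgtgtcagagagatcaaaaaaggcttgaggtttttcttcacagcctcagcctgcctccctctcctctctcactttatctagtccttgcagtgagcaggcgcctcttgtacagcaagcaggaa
The *Cbl* window holds 2 Egr matches, the *Cblb* window 2 CCAAT boxes, the *Ubash3b* window 2 NFAT matches and 1 STAT5 match, and the *Ubash3a* window none of the 8 motifs. GC content was 74.0% in the *Cbl*, 61.3% in the *Cblb*, 50% in the *Ubash3b* and 54.7% in the *Ubash3a* window, against a median of 52.7% over all windows. CpG dinucleotides numbered 43, 17, 5 and 6 in the same order. *Cbl* and *Ubash3b*, which were both lower in male “wannabes”, thus have windows of very different base composition. A second *Ubash3b* start in the table has a window with 48.7% GC and 1 CCAAT box. The forkhead motif had no match in the 9 windows, which says only that these letters are not in them.

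**Figure D2:**
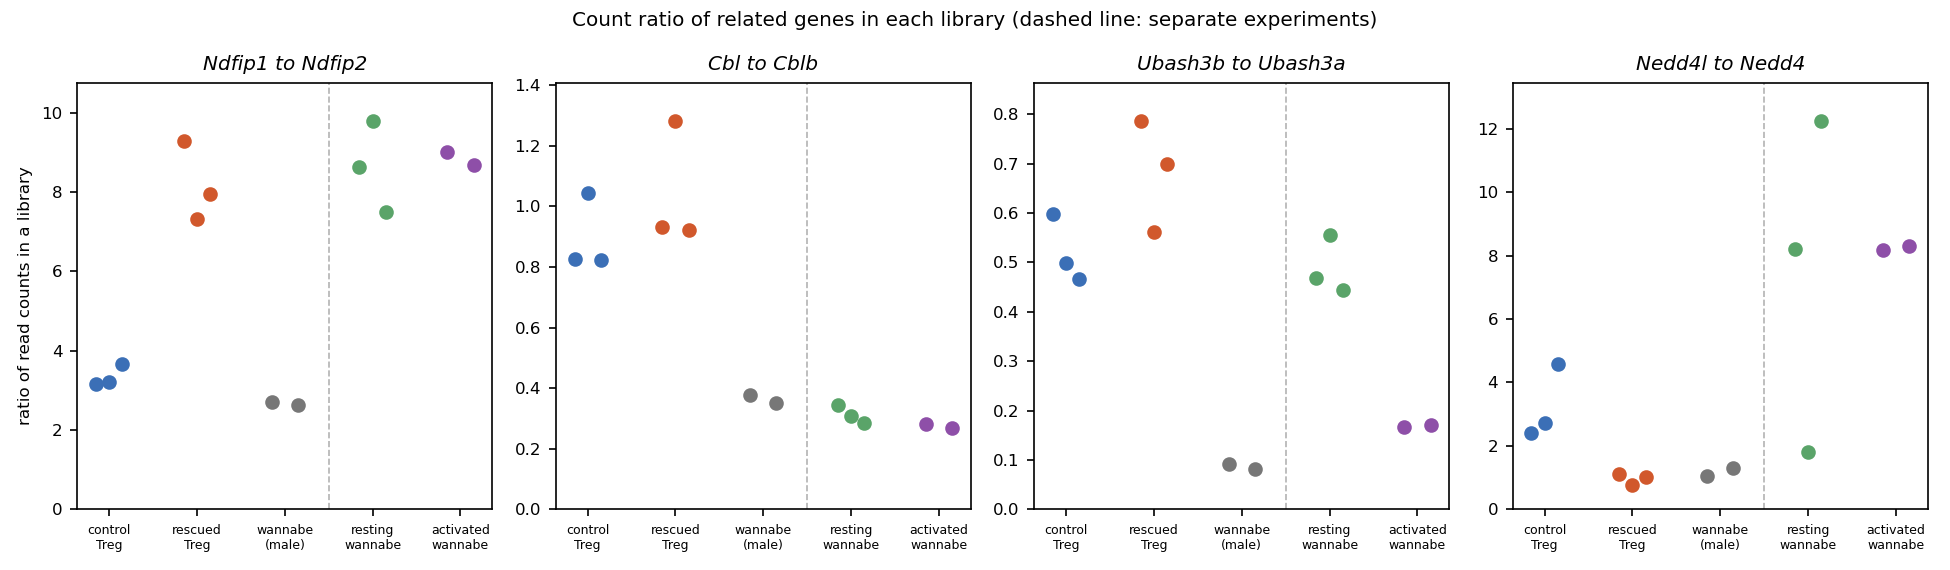
Ratio of the read counts of related genes within each library, 1 panel a pair, by population, with a dashed line between the experiments. The *Ubash3b* to *Ubash3a* ratio is at most 0.171 in the male and the activated “wannabes” and at least 0.444 elsewhere, and the *Cbl* to *Cblb* ratio is at least 0.822 in the 6 Treg libraries and at most 0.378 in all “wannabes”.

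*Rnf128*, the only X-linked gene of the list, from 139563316 to 139673145 on the plus strand, was counted at low levels and varied widely between replicates. Its normalized count was 89.0, 56.5 and 3.77 in control Treg, 368, 67.4 and 189 in rescued Treg and 39.5 and 38.8 in male “wannabe” libraries. Rescued libraries all exceeded the “wannabe” ones but overlapped the control ones, and a single control library was near 0. The log2 fold changes were 2.07 ± 0.93 (SE, 95% interval 0.01 to 4.12) for rescued against control Treg, 0.34 ± 1.03 (SE, 95% interval -1.91 to 2.60) for control Treg against “wannabes” and 2.41 ± 1.11 (SE, 95% interval -0.02 to 4.84) for rescued Treg against “wannabes”. In females it was 57.9, 154 and 48.8 in resting and 181 and 112 in activated “wannabes”, which overlapped, at 0.75 ± 0.53 (SE, 95% interval -0.52 to 2.03). Without a library the change of rescued against control Treg lay between 1.37 (without rescued Treg replicate 1) and 2.78 (without control Treg replicate 1). That of rescued Treg against “wannabes” lay between 1.71 (without rescued Treg replicate 1) and 2.87 (without rescued Treg replicate 2), and that of control Treg against “wannabes” between -0.37 (without control Treg replicate 1) and 0.89 (without control Treg replicate 3). For activated against resting “wannabes” it lay between 0.36 (without activated “wannabe” replicate 1) and 1.46 (without resting “wannabe” replicate 2). None of these changes passed the threshold, but that of activated against resting “wannabes” did in the fit without resting “wannabe” replicate 2.

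Counted over the list, all 10 genes passed the filter on low counts in both experiments. For rescued against control Treg cells, 1 of the 10 was called higher (*Ndfip1*) and 0 lower, and 2 did not overlap (*Ndfip1* and *Nedd4l*). Over all 14925 genes tested, 1.43% were called higher, 0.864% lower, and 24.2% did not overlap. For control Treg against “wannabe” cells, 5 of the 10 were called higher (*Ndfip1*, *Ndfip2*, *Nedd4l*, *Cbl* and *Ubash3b*) and 0 lower, and 6 did not overlap, the same genes and *Cblb*. Over all genes 9.92% were called higher, 6.27% lower, and 46.1% did not overlap. For rescued Treg against “wannabe” cells, 4 were called higher (*Ndfip1*, *Ndfip2*, *Cbl* and *Ubash3b*) and 0 lower, and 6 did not overlap, these 4 with *Nedd4* and *Rnf128*. Over all genes 10.0% were called higher, 4.06% lower, and 42.7% did not overlap. For activated against resting “wannabes”, 0 were called higher and 1 lower (*Ubash3b*), and 6 did not overlap. Over the 13166 genes tested there, 11.3% were called higher, 11.2% lower, and 56.5% did not overlap. The median log2 fold changes of the 10 genes in the same order of comparisons were -0.14, 0.89, 0.98 and -0.02, beside -0.03, 0.09, 0 and -0.01 for all genes tested. Since the list was put together with these contrasts in view, nothing follows from these counts about the genes. The 3 male comparisons share libraries and are not independent of each other.

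**Figure D3:**
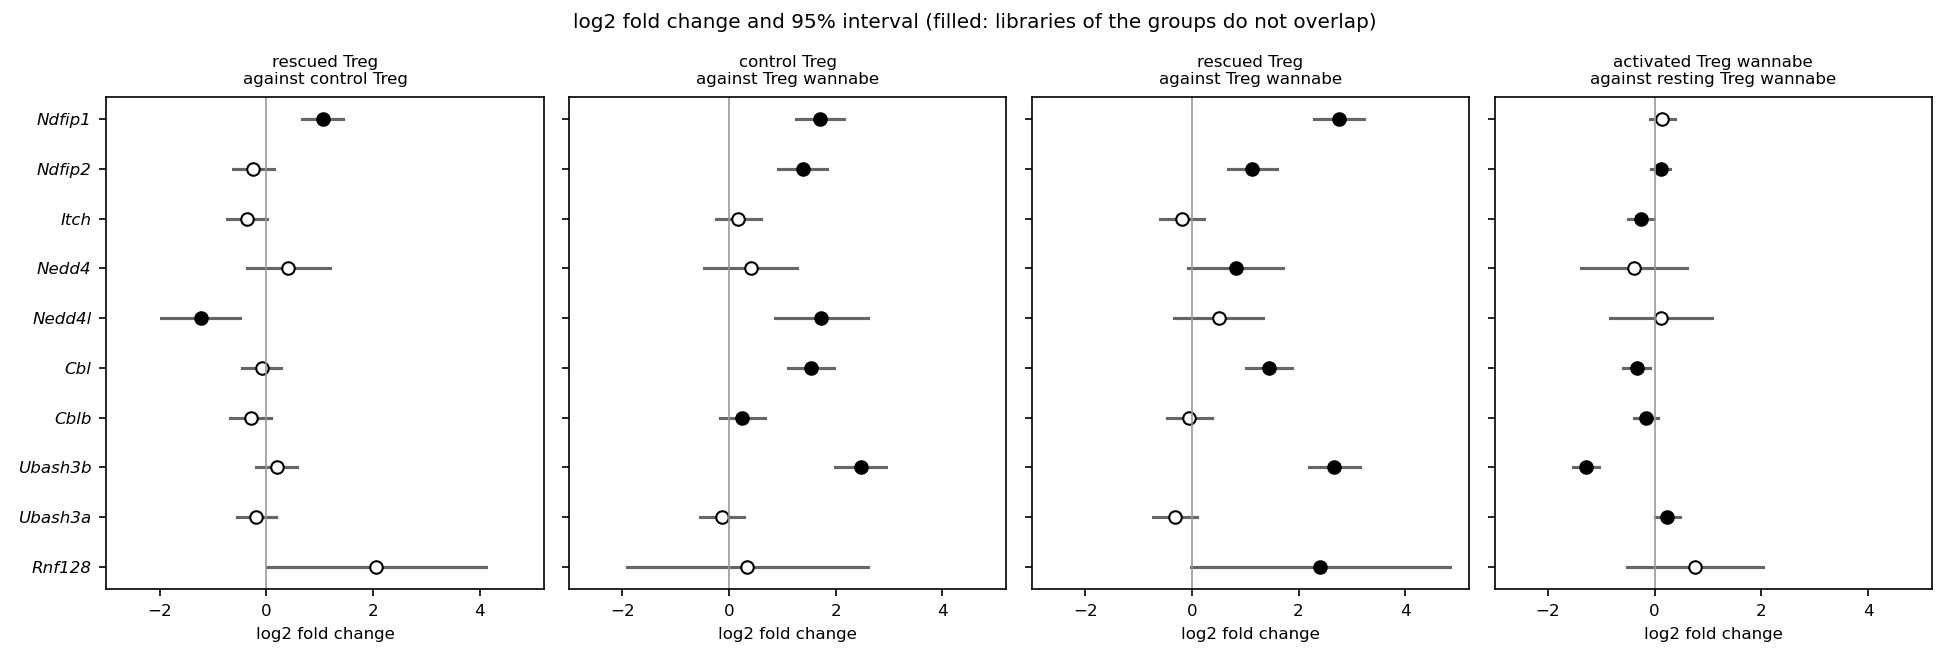
Log2 fold change (points) and 95% interval (lines) of the 10 genes in the 4 comparisons. Filled points mark genes whose libraries did not overlap between the groups. *Ubash3b* is at 2.47 and 2.67 in the comparisons of Treg cells with “wannabes” and at -1.29 in activated against resting “wannabes”.

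Levels of different genes can be set side by side only per length, as CPM (counts scaled to library size) per kilobase of annotated exons. On this scale *Ndfip1* was the most abundant of the 10 transcripts in 4 of the 5 populations, at 73.9 ± 1.29 (SD, n = 3) in control Treg, 154 ± 35.1 (SD, n = 3) in rescued Treg, 164 ± 18.3 (SD, n = 3) in resting and 182 ± 2.69 (SD, n = 2) in activated “wannabes”. No other gene of the list overlapped it in these 4 populations. In male “wannabes” *Ubash3a* came first at 32.3 ± 8.33 (SD, n = 2), and *Ndfip1* at 22.7 ± 3.68 (SD, n = 2) overlapped *Cblb* at 20.4 ± 0.521 (SD, n = 2). Next to *Ndfip1* in control Treg cells stood *Ubash3a* at 29.5 ± 1.70 (SD, n = 3), then *Cblb* and *Ubash3b*, which overlapped at 24.2 ± 2.16 (SD, n = 3) and 23.5 ± 2.04 (SD, n = 3). *Cbl* and *Itch* followed, overlapping at 18.3 ± 1.32 (SD, n = 3) and 17.6 ± 2.95 (SD, n = 3), and then *Ndfip2* at 12.1 ± 1.12 (SD, n = 3). In rescued Treg cells each gene from *Ubash3b* at 27.0 ± 4.81 (SD, n = 3) to *Cbl* overlapped the next in order, the last of them *Itch* at 13.7 ± 1.41 (SD, n = 3), which stood above *Ndfip2* without overlap. In resting “wannabes” *Ubash3a* and *Cblb* overlapped, as did *Itch* and *Ubash3b*, whereas *Cbl* at 6.12 ± 0.544 (SD, n = 3) stood alone. In activated “wannabes” the first 7 genes, from *Ndfip1* to *Cbl* at 4.85 ± 0.152 (SD, n = 2), were each apart from the next. *Nedd4*, *Nedd4l* and *Rnf128* filled the last 3 places in all populations, at group means between 0.251 and 1.96. The male and female tables were normalized separately and differ in sex, age and treatment, so the higher *Ndfip1* level of female than of male “wannabes” was not tested.

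By the Euclidean distance over the 5 group means of log2 CPM, each centred within its experiment, the genes most like a member were sought among 10240 genes with sufficient counts. *Ndfip1* was nearest to *Mpv17l2* (distance 0.0170 on the log2 scale), *Tcf3* (0.0368) and *Hnrnpu* (0.0826). *Ndfip2* was nearest to *Zfp760* (0.0323), *Rcan3* (0.0480) and *Galnt10* (0.0579), and *Cbl* to *Zfp219* (0.0519), *Pgpep1* (0.0646) and *Gpsm1* (0.0738). *Ubash3b* had *Jun* as the nearest gene (0.176), followed by *Dag1* (0.233) and *Mmd* (0.318). *Nedd4l* was nearest to *Mctp1* (0.123), *Itch* to *Dph7* (0.0191), *Cblb* to *Tbc1d23* (0.0226) and *Ubash3a* to *Celsr1* (0.0186). *Rnf128* was nearest to *Plk3* at 0.221, and its next neighbours were farther off, at 0.517 and 0.553. *Nedd4* had too few counts in the female experiment for this measure. With 5 means and their experiment's centre removed, such nearness is a description of group levels only.

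Other genes of the same pathways were taken from 7 lists with 64 genes. Of these, 63 were tested in the male and 62 in the female experiment with edgeR's quasi-likelihood test and Benjamini-Hochberg adjustment over all genes. The lists, too, were chosen with earlier results of these data known. Their counts and adjusted p-values are thus a description and not independent evidence. For rescued against control Treg cells, 2 of 63 were higher and 0 lower, beside 1.43% and 0.864% of all genes tested. Both were in the list of NFAT and anergy genes. *Nfatc1*, a transcription factor downstream of calcium signals, was higher by a log2 fold change of 0.66 ± 0.14 (SE, adjusted p = 0.0361). Its libraries did not overlap between the groups, as for 24.2% of all genes tested. The call was lost in the 6 fits without any 1 of the control or rescued libraries. In the other 6 lists 0 genes passed with edgeR, and DESeq2 called 1, a Cbl partner. At an unadjusted p under 0.05 edgeR had 12 of the 63 genes, 6 in each direction.

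Between control Treg and “wannabe” cells, 11 of 63 companion genes were higher and 6 lower in control Treg, and 10 of these 17 calls held in all 8 fits without a library. Over all genes tested 9.92% were called higher and 6.27% lower. Among the 14 other ligases and ligase adaptors tested, 5 were higher and 1 lower. *Rc3h1* (Roquin-1), an RNA-binding RING protein that restrains helper T cells, was higher by 1.49 ± 0.18 on the log2 scale (SE, adjusted p = 0.000789), *Stub1* (CHIP), a chaperone-linked ligase, by 1.27 ± 0.24 (SE, adjusted p = 0.00479), and *Mdm2*, the p53 ligase, by 0.80 ± 0.16 (SE, adjusted p = 0.00692). *Cish*, a STAT5-induced suppressor of cytokine signalling, went the other way, at -1.18 ± 0.20 (SE, adjusted p = 0.00316). Of 15 proteins known as substrates, 3 were higher and 1 lower. The cytokine receptor kinase *Jak1* was higher by 1.24 ± 0.16 (SE, adjusted p = 0.00105) and the kinase *Prkcq* (PKC-theta), which Cblb, Itch and Nedd4 are known to limit in anergic cells, by 1.07 ± 0.16 (SE, adjusted p = 0.00195), while the costimulatory ligand *Cd40lg* was lower at -1.58 ± 0.23 (SE, adjusted p = 0.00162). *Jun*, the AP-1 subunit that Itch marks for degradation, was higher by 2.30 ± 0.62 (SE, adjusted p = 0.0276), a call lost without control Treg replicate 1, control Treg replicate 2 or Treg “wannabe” replicate 1. In the ubiquitin machinery the E2 enzyme *Ube2d1* was higher by 2.20 ± 0.27 (SE, adjusted p = 0.000789) and the E1 enzyme *Uba1* lower at -0.69 ± 0.14 (SE, adjusted p = 0.0083). The deubiquitinase *Otub1* was lower at -0.71 ± 0.16 (SE, adjusted p = 0.0118). Of the 9 Cbl partners 2 were higher and 0 lower, of the 7 NFAT and anergy genes 0 higher and 2 lower, also with DESeq2, and of the 6 other Nedd4 family ligases 0 passed with edgeR, against 1 at an unadjusted p under 0.05 and 2 with DESeq2. None of the genes named overlapped between the groups, beside 46.1% of all genes tested that did not overlap. They were named for a small adjusted p, so this adds no support.

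Between rescued Treg and “wannabe” cells, 16 of 63 companion genes were higher and 3 lower in rescued Treg, and 9 of the 19 calls held in all 8 fits without a library. Over all genes tested 10.0% were called higher and 4.06% lower. Among the 14 other ligases and adaptors tested, 7 were higher and 1 lower. *Rc3h1* was higher by 1.55 ± 0.18 (SE, adjusted p = 0.000397), *Stub1* by 1.36 ± 0.24 (SE, adjusted p = 0.00321), *Mdm2* by 0.79 ± 0.16 (SE, adjusted p = 0.00715) and *Socs1*, an inhibitor of JAK kinases, by 2.96 ± 0.58 (SE, adjusted p = 0.00628). *Jak1* was higher by 1.38 ± 0.16 (SE, adjusted p = 0.0004), *Prkcq* by 1.34 ± 0.16 (SE, adjusted p = 0.000484) and *Jun* by 2.59 ± 0.63 (SE, adjusted p = 0.0184), the last not without Treg “wannabe” replicate 1. *Cd40lg* was lower at -1.25 ± 0.23 (SE, adjusted p = 0.00438), and in the ubiquitin machinery 1 gene was higher, *Ube2d1* by 1.99 ± 0.27 (SE, adjusted p = 0.000706), and 1 lower, *Uba1* at -0.53 ± 0.14 (SE, adjusted p = 0.031). The *Uba1* call was lost without control Treg replicate 2, without Treg “wannabe” replicate 2 and without any 1 of the rescued libraries. Of the Cbl partners 3 were higher and 0 lower, among them the adaptor *Crk* at 1.16 ± 0.23 (SE, adjusted p = 0.00728), a call lost without Treg “wannabe” replicate 2. The 2 “wannabe” libraries and the rescued or control libraries serve several of these comparisons, so a gene that appears in more than 1 of them is not counted as repeated evidence.

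Between activated and resting “wannabes”, 8 of 62 companion genes were higher and 16 lower, and 5 of the 24 calls held in all 5 fits without a library. *Jun* and *Junb*, which encode AP-1 subunits, were among these 5. Of the 15 substrates 0 were higher and 6 lower with edgeR, beside 11.2% of all genes called lower, and the counts were the same at an unadjusted p under 0.05 and with DESeq2. Of these 6 calls 3 (*Cd247*, *Cd3e* and *Pik3r1*, named after their values were seen) were lost without activated “wannabe” replicate 1 and also without activated “wannabe” replicate 2, and that of *Cd3e* also without resting “wannabe” replicate 1. *Jun* was lower at -1.51 ± 0.19 (SE, adjusted p = 0.00308) and *Junb* at -0.75 ± 0.11 (SE, adjusted p = 0.00652). Over all genes tested 11.3% were called higher and 11.2% lower, to be set beside each count of companion genes here. Of the 9 Cbl partners 1 was higher and 3 were lower. Of the 14 other ligases and adaptors 4 were higher and 3 lower. *Cish* was higher by 0.69 ± 0.10 (SE, adjusted p = 0.00639), a call lost without activated “wannabe” replicate 2. *Jun* normalized counts were 16928 to 24463 in resting and 6366 and 8280 in activated libraries, without overlap, as for 56.5% of all genes tested.

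**Figure D4:**
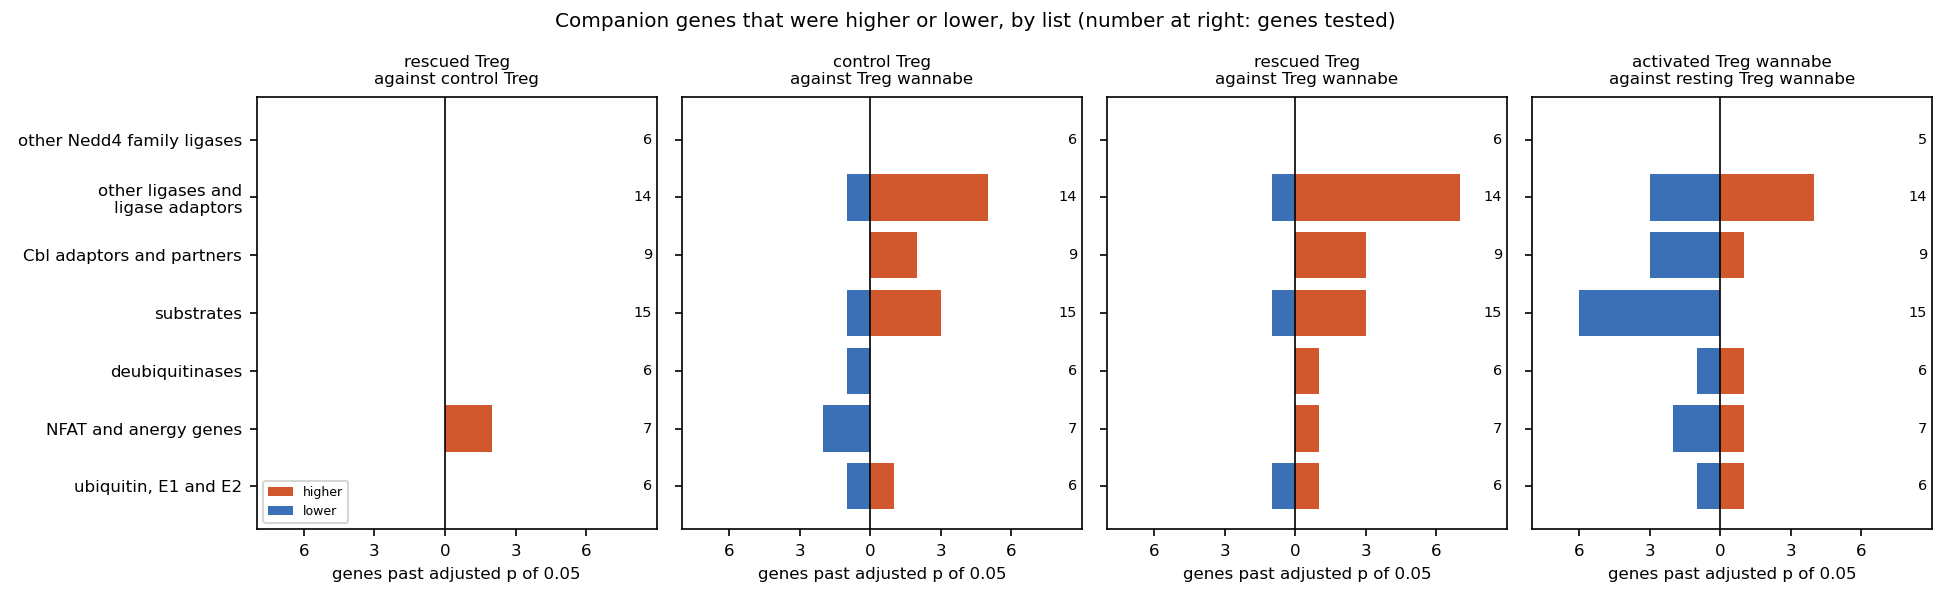
Number of companion genes past an adjusted p of 0.05 in each list, higher to the right and lower to the left of 0, in the 4 comparisons, with the number of genes tested at the right of each row. For rescued against control Treg only 2 genes passed, and the 15 substrates show 6 lower and 0 higher in activated against resting “wannabes”.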

How the data were processed

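Bulk RNA-seq libraries of sorted cells, 8 male and 5 female, were assigned to 5 populations by their labels. The male count columns carry reporter names (DTR, GFP and Thy1) in place of sample titles, and were matched to control Treg, rescued Treg and “wannabe” libraries by genotype, reporter and number. The series' design text lists 3 activated and 2 resting libraries, whereas the sample labels and the columns, followed here, give 2 and 3. Per the paper's methods and the submitters' processing notes, the authors aligned reads with STAR 2.7.3a to GRCm38 and counted them per gene, and the deposited values are raw read counts. The gene annotation and the strand setting are not given in the sources used here. A low-input kit without molecular identifiers was used to amplify the RNA. Of 24421 entries, 4 without a gene name (0.00353 to 0.00841% of counts) were left out.

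Each experiment was fitted on its own in R 4.3.3 with edgeR 4.0.16 (TMM, filterByExpr, quasi-likelihood F test, Benjamini-Hochberg adjustment over all genes tested, adjusted p under 0.05). The biological coefficient of variation (edgeR's common estimate) was 0.510 for males and 0.171 for females. P-values measure the spread between the samples that the labels list. Replicate pairs all differed beyond sampling noise. The fits were repeated with DESeq2 1.42.0, with its size factors given to edgeR, without the low-count filter, on only the populations compared, with the replicate number as a block, and without each library in turn. The members and lists were chosen with earlier results of these data known. All members are named; of each companion list at most 4 genes with the smallest adjusted p among those past the threshold are named, and of each member the 3 nearest genes among those whose normalized counts averaged over 100 in each experiment, using a prior count of 2 for log2 CPM. Gene models and exonic lengths come from GENCODE M21 on GRCm38, and promoter windows from RefSeq. Results for some genes that this rule covers are not reported here. Scripts were tested on simulated data.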

Additional observations from a re-analysis of the deposited data

How the results depend on the processing

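Among the refits of the fold changes of single members, 460 kept their direction and their side of the threshold, 10 passed it newly and 3 lost it. The other 7, none past the threshold in either fit, changed sign without 1 library: *Cbl* for rescued against control Treg (0.06 without rescued Treg replicate 1), *Rnf128* (-0.37 without control Treg replicate 1) and *Ubash3a* (0.11 without Treg “wannabe” replicate 2) for control Treg against “wannabes”, *Cblb* for rescued Treg against “wannabes” (0.05 and 0.09 without rescued Treg replicate 1 and 2), and *Nedd4* (0.06) and *Nedd4l* (-0.21) for activated against resting “wannabes” without resting “wannabe” replicate 2. For rescued against control Treg cells edgeR called 343 genes and 1 member; DESeq2 called 1195 genes, the fit without the filter 612 and the fit of only these populations 580, each with 2 members, and leaving out a library gave 114 to 598 genes, 0 to 2 members and 0 to 4 companion genes. For control Treg against “wannabe” cells 2416 genes were called, 3751 with DESeq2 and 1549 to 2423 without a library, with 4 to 5 members and 14 to 22 companion genes. For rescued Treg against “wannabe” cells 2105 were called, 3316 with DESeq2 and 1570 to 1959 without a library, with 4 members in every such fit and 15 to 22 companion genes. For activated against resting “wannabes” 2958 genes and 1 member were called, 2 members with DESeq2, and 751 to 3215 genes, 1 to 4 members and 5 to 24 companion genes without a library. The cause of these differences was not tested. Where a population was left with 1 library, that sample is assumed to vary like the others. Without Treg “wannabe” replicate 1 the median log2 fold change of all genes was 0.22 for control Treg against “wannabes” and 0.13 for rescued Treg against “wannabes”, beside 0.09 and 0 with it. Without Treg “wannabe” replicate 2 it was 0.17 and 0.05, so the 0.11 of *Ubash3a* there lay below the median of all genes. Member changes in those fits are to be read relative to these medians.

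Same-numbered libraries did not deviate together (correlations of their deviations from the group means from -0.0292 to 0.0845, none over 0.1). With so few libraries in a group, each centred on its group mean, this cannot exclude that the numbers pair the samples. With the replicate block edgeR called 426, 2304, 1968 and 2045 genes in the order of comparisons above, and 1, 5, 4 and 1 members, as many as without it, and 2, 21, 18 and 16 companion genes beside 2, 17, 19 and 24.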
